A study of Homo sapiens with 2 samples.

Results

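DNA damage repair genes were examined in NB4 cells after CRNDE knockdown. NB4 is a human line derived from acute promyelocytic leukemia (APL) and expresses the PML/RARα fusion protein, and CRNDE is a long noncoding RNA. One culture was infected with a lentivirus for CRNDE shRNA (sh-CRNDE, called knockdown cells below) and the other with a lentivirus for a non-targeting control shRNA (sh-Control, called control cells), and RNA of both was collected on day 3. The shRNAs were carried by the vector pLVX-shRNA2, with which infected cells can be selected by the green fluorescent protein ZsGreen1. Each group was 1 library, made from total RNA with the TruSeq RNA kit v2, so no difference below has a replicate check, no error and no p-value can be given, and every value describes these 2 libraries. The study used a pair of CRNDE shRNAs, and the sources used here do not say which one these cells had.

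The repair genes were chosen by their symbols, not by their values, though earlier results of these data were known. They are the Fanconi anemia genes with a single letter from A to M, a set of RAD, XRCC, ERCC, MSH, MLH and PARP genes, and BRCA1, BRCA2, BARD1, PALB2, ATM, ATR, CHEK1, CHEK2, NBN, MRE11A (now MRE11), PMS2, PRKDC, LIG3, LIG4, BLM, WRN, OGG1, UNG and APEX1. Of the 11619 genes listed for both libraries, 62 were repair genes by this rule. MSH4, which acts in meiosis, was the only gene of a current symbol under the rule that was not among the listed genes. FANCD2 carries a digit after the letter, falls outside the rule and is described with the other genes of the pathways.

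A cell repairs its DNA by several routes. The kinases ATM and ATR sense breaks and stalled replication forks and signal to the checkpoint kinases CHEK2 and CHEK1. Double-strand breaks are joined end to end by the Ku proteins, DNA-PKcs and ligase IV, or are copied from the sister chromatid by homologous recombination, which needs BRCA1 and BRCA2. Crosslinks between the strands are handled by the Fanconi anemia proteins, bulky lesions such as ultraviolet photoproducts by nucleotide excision repair, mispaired bases by mismatch repair, and damaged single bases and nicks by base excision and single-strand break repair.

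The deposited values are FPKM, fragment counts divided by transcript length and by the number of mapped fragments of the library. The change of a gene is its log2(FPKM + 1) in sh-CRNDE minus that in sh-Control, and a gene is said to be past 1.5-fold where this change is above 0.585 or as far below 0. FPKM keep no read counts, so the depth behind each value is unknown. The values summed to 141217 FPKM in control cells and 170373 FPKM in knockdown cells. The mitochondrial ribosomal RNA gene MT-RNR2 alone was at 27614 FPKM in knockdown cells, a change of 14.8. Genes at 1 FPKM or more in both libraries summed to 138077 FPKM in control cells and 139692 FPKM in knockdown cells. Every listed gene was at 0.5 FPKM or more in at least one library. The targeted gene CRNDE was at 5.92 FPKM in control cells and 1.85 FPKM in knockdown cells, a change of -1.28, and GAPDH, a glycolytic enzyme often used as a control, was at 942 and 785 FPKM, a change of -0.26. Of 9 markers of NB4 promyelocytes, 8 were listed, ELANE was not, and their summed level was 1491 FPKM in control cells and 884 FPKM in knockdown cells. MPO (1135 and 738 FPKM) and PRTN3 (200.5 and 41.8 FPKM) made up most of that sum, while CEBPE went the other way, with 0.748 and 8.75 FPKM. Of 4 markers each, 1 was listed for T cells, with 0.991 and 1.16 FPKM, 3 for B cells, with a sum of 3.98 and 4.33 FPKM, none for erythroid cells, and 1 for epithelial or HEK-293T-like cells, EPCAM, with 4.82 and 4.49 FPKM. Whether the mix of cells in the culture or the RNA per cell differed cannot be told apart in bulk RNA, and the part of either in the results below was not tested.

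The sequences targeted by the CRNDE shRNAs are shown because an shRNA can also act on other transcripts. They are the sense strands of the hairpins given in the study's methods, with the match to the seed of the guide strand in capitals.
sh-CRNDE1: gggtattcctgTTTATAGa
sh-CRNDE2: gtgctcgagtgGTTTAAAt
Each target was found in 19 of the 30 annotated CRNDE transcripts and in 0 of the 1361 annotated transcripts of the 62 repair genes. The seed match of sh-CRNDE1 stood in the canonical transcripts of 16 repair genes (25.8%) and in 20.5% of the 11508 listed genes with a canonical transcript, and that of sh-CRNDE2 in 19 repair genes (30.6%) and in 25.3% of all. The median change of the repair genes was 0.11 with and 0.096 without the first seed match, and 0.099 with and 0.10 without the second. RAD50 and FANCF hold the second seed match, and FANCG holds neither.

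Most repair genes were at similar levels in both libraries. Of the 62 genes, 3 (4.84%) were past 1.5-fold, while 17.2% of all listed genes were. The 2 genes higher in sh-CRNDE were RAD50 and FANCF, beside 8.38% of all listed genes, and the 1 lower gene was FANCG, beside 8.83%. FANCF alone was past 1.5-fold when the GC content of the transcripts was allowed for, as described below. FANCF was listed at 0 in sh-Control, so its call as deposited was fixed in advance. Every listed gene was at 0.5 FPKM or more in at least 1 library, and from 0 such a level is past 1.5-fold. Of the 59 repair genes at 1 FPKM or more in both libraries, 2 (3.39%) were past 1.5-fold, beside 14.1% of all genes with that level. A change of more than 0.32 in either direction was seen in 12 repair genes (19.4%), 8 higher and 4 lower, and in 39.4% of all listed genes. The median size of the change, without its sign, was 0.16 for the repair genes and 0.25 for all listed genes, and 21 repair genes differed by less than 0.1.

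The repair genes leaned to higher values in sh-CRNDE by a small step. The change was above 0 in 41 of 62 (66.1%) and in 49.2% of all listed genes, and its median was 0.099, with the 25th to 75th percentile from -0.033 to 0.25. Over all listed genes the median was -0.0072, with the 25th to 75th percentile from -0.26 to 0.23. The summed level of the repair genes was 874 FPKM in control cells and 928 FPKM in knockdown cells. Their median level was 6.57 and 6.45 FPKM, above the medians of 3.95 and 3.89 FPKM over all listed genes. The plot of the distribution of the change shows the repair genes in a narrower and slightly right-shifted curve.

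**Figure D1:**
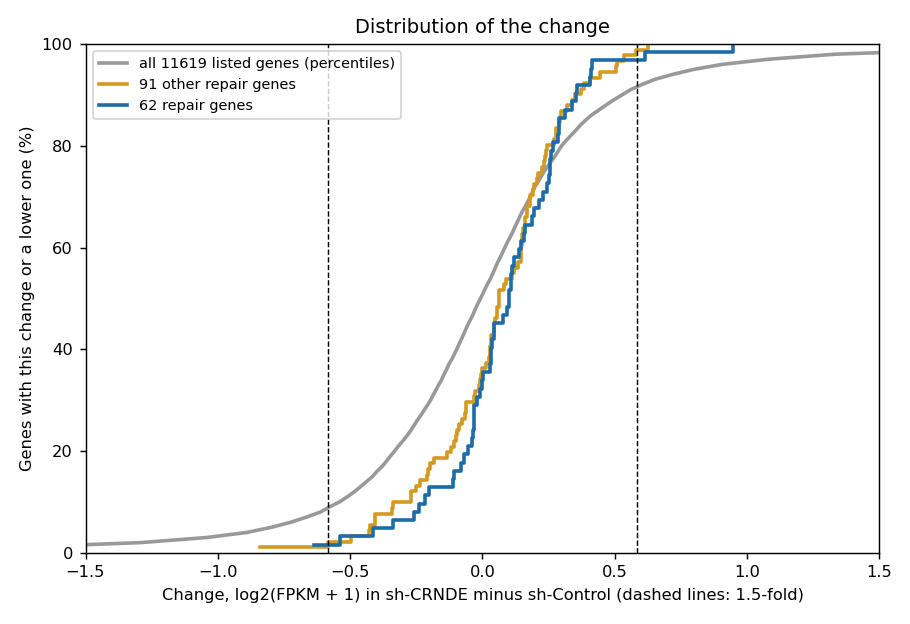
The x axis is the change (log2(FPKM + 1) in sh-CRNDE minus sh-Control) and the y axis the percentage of genes with that change or a lower one, for the 62 repair genes (blue steps), 91 other repair genes (yellow steps) and all 11619 listed genes (grey line, drawn from percentiles); dashed lines mark 1.5-fold. Both repair curves are steeper than the grey one, and 3 of 62 repair genes lie outside the dashed lines.

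Few repair genes were past 1.5-fold in each range of levels from 1 FPKM up. Among genes with a mean of both libraries of 2 to 5 FPKM, 0 of 16 repair genes were past 1.5-fold, beside 17.5% of all listed genes in that range. From 5 to 10 FPKM it was 1 of 16, beside 18.2%, and from 10 to 20 FPKM 1 of 10, beside 16.9%. At 20 FPKM or more it was 0 of 11, beside 15.9%. Of the least expressed, 0 of 7 from 1 to 2 FPKM and 1 of 2 under 1 FPKM were past it, beside 15.5% and 18.4%.

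Among the damage sensors, the subunits of the MRN complex were all higher in sh-CRNDE, by different amounts. MRN (MRE11, RAD50 and NBN) binds the ends of a break, trims them and activates ATM. RAD50, the ATPase that tethers the ends, was at 7.33 FPKM in control cells and 11.7 FPKM in knockdown cells, a change of 0.61 and higher than 92.2% of all listed genes. NBN, the subunit that recruits ATM, was at 11.9 and 16.3 FPKM, a change of 0.42. MRE11A, the nuclease, was at 15.7 and 17.1 FPKM, a change of 0.11. RAD50 was just past 1.5-fold and NBN and MRE11A were not. When GC content was allowed for, as described below, NBN was at 0.24 and MRE11A at -0.069, so MRE11A was no longer higher. The level of MRE11A was 2.15 times that of RAD50 in sh-Control and 1.46 times in sh-CRNDE, and it was 1.32 and 1.05 times that of NBN.

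The values of RAD50 and NBN may hold reads of neighbouring genes. RAD50 has 25 exons at chromosome 5, 132556019 to 132646349 (GRCh38, plus strand), and shares 8124 exonic bases on the same strand with the protein-coding gene ENSG00000283782, which was not among the listed genes. NBN shares 827 bases with OSGIN2 on the opposite strand, and the kit does not mark strand. OSGIN2 was at 1.53 FPKM in control cells and 7.69 FPKM in knockdown cells. The part of either overlap in the changes was not tested.

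The 250 bases before the RefSeq start of RAD50, the only damage sensor past 1.5-fold, are shown on the plus strand (chr5:132556727-132556976, GRCh38.p14).
RAD50: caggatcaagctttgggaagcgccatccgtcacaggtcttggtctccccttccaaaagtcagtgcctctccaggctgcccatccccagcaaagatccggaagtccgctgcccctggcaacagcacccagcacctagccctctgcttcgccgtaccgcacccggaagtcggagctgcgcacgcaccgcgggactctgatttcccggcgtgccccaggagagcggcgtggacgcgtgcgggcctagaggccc
No CCAAT box, GC box or E2F site of the letters searched below lies in these bases, and 66.0% of them are G or C. The promoter searched below also takes in the 50 bases after the start, which are not shown, and with them RAD50 has 1 GC box.

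The 9-1-1 clamp, a ring of RAD9A, RAD1 and HUS1 that is loaded at damaged DNA and activates ATR, had unequal values. RAD9A was at 4.04 FPKM in control cells and 2.47 FPKM in knockdown cells, a change of -0.54, the nearest to the threshold among the genes not past it. With a pseudocount of 0.1 in place of 1 its change was -0.69, past 1.5-fold. At the pseudocount of 1 and with GC content allowed for it was -0.30. RAD1 was at 4.59 and 4.55 FPKM, a change of -0.011, and HUS1, which is outside the rule, was at 3.07 and 3.50 FPKM, a change of 0.15. RAD9A was thus the only clamp gene that was lower by more than a small step. Its level was 1.32 times that of HUS1 in sh-Control and 0.707 times in sh-CRNDE. RAD9A shares 230 exonic bases with PPP1CA on the opposite strand, which was at 57.7 and 52.0 FPKM. RAD17, which loads the clamp, was at 9.25 and 9.94 FPKM, a change of 0.094.

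The kinases at the head of the response differed little as deposited, apart from CHEK2. ATM was at 4.21 FPKM in control cells and 3.82 FPKM in knockdown cells, a change of -0.11. ATR was at 6.47 and 6.48 FPKM, a change of 0.0029, and CHEK1, the checkpoint kinase downstream of ATR, was at 8.77 and 8.63 FPKM, a change of -0.022. CHEK2, the checkpoint kinase downstream of ATM, was at 3.93 and 5.55 FPKM, a change of 0.41 that was past 0.32 but not past 1.5-fold. With GC content allowed for, as described below, ATM was at -0.29, ATR at -0.15, CHEK1 at -0.14 and CHEK2 at 0.33. A stretch of 328 bases of CHEK2 has a near-identical copy in a noncoding gene that was not among the listed genes, so the reads of CHEK2 may be split. Over the 10 genes of damage sensing and the checkpoint, 1 was past 1.5-fold, 6 were above 0 and the median change was 0.048, which turned to -0.11 when the GC content described below was allowed for.

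**Figure D2:**
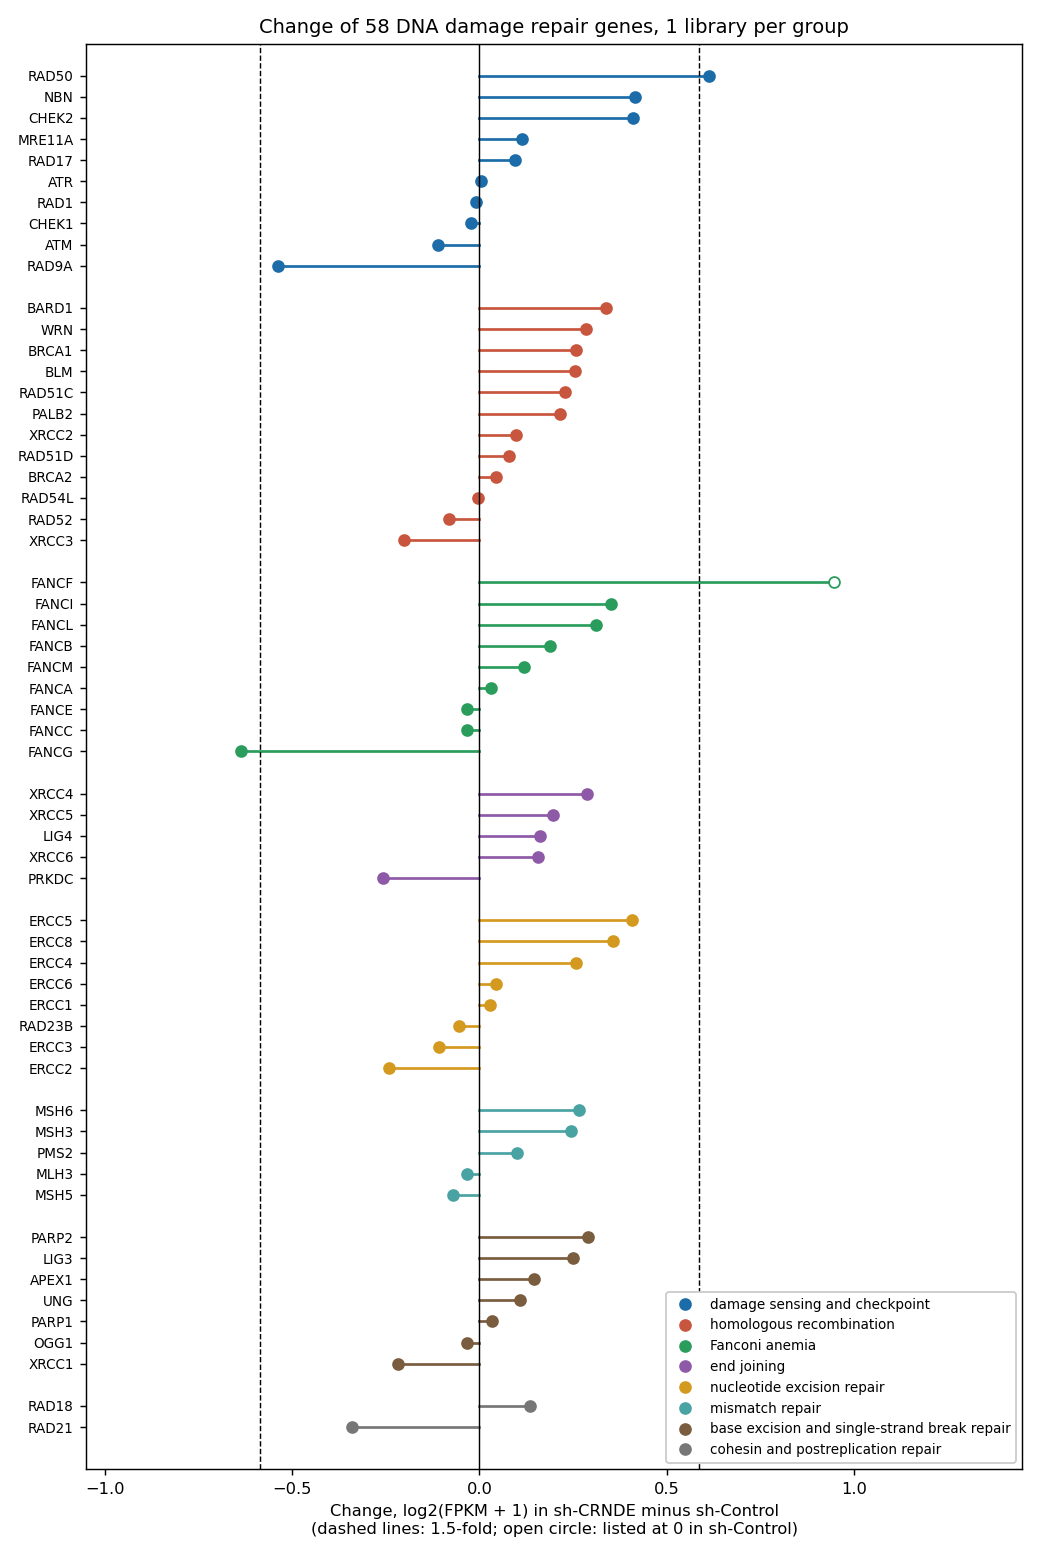
Each row is one of 58 repair genes, grouped and coloured by pathway, and the x axis is its change (log2(FPKM + 1) in sh-CRNDE minus sh-Control, 1 library per group); dashed lines mark 1.5-fold and the open circle is a gene listed at 0 in sh-Control. RAD50 and FANCF lie past the right line, FANCG lies past the left one, and RAD9A lies just inside it.

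In homologous recombination, 0 of 13 genes were past 1.5-fold, 10 were above 0, and the median change was 0.099. BRCA1, which directs break ends to recombination, was at 10.6 FPKM in control cells and 12.9 FPKM in knockdown cells, a change of 0.26. Its ubiquitin ligase partner BARD1 had the largest change of the group, 0.34, with 2.19 and 3.03 FPKM. BRCA2, which readies single-stranded DNA for strand exchange, was at 8.47 and 8.76 FPKM, a change of 0.043. PALB2, which links BRCA1 to BRCA2, was at 6.69 and 7.92 FPKM, a change of 0.22. All 4 genes of this axis were higher in sh-CRNDE as deposited, and none was past 1.5-fold. With GC content allowed for, BRCA2 turned to -0.17, while BRCA1 was at 0.14, BARD1 at 0.16 and PALB2 at 0.12.

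The helpers of strand exchange were close to equal or went both ways. The DNA translocase RAD54L was at 15.6 FPKM in both libraries, a change of -0.0030. RAD51C was at 5.29 and 6.37 FPKM, a change of 0.23. Its partner XRCC3 went the other way, with 2.36 and 1.92 FPKM and a change of -0.20, the lowest of the group as deposited, which became 0.088 with GC content allowed for. The level of RAD51C was 2.24 times that of XRCC3 in sh-Control and 3.32 times in sh-CRNDE as deposited. With GC content allowed for, RAD51C was at 0.11, so these partners then had similar changes. XRCC3 shares 5756 exonic bases with KLC1 on the opposite strand, which was at 3.22 and 2.93 FPKM. RAD51D (0.946 and 1.05 FPKM) and XRCC2 (0.532 and 0.640 FPKM), which form a pair of their own, were among the least expressed repair genes. RAD52, an annealing protein, was at 1.70 and 1.55 FPKM, a change of -0.082.

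The RecQ helicases BLM and WRN, which unwind recombination intermediates, were both higher in sh-CRNDE by a similar step. BLM was at 14.0 FPKM in control cells and 16.9 FPKM in knockdown cells, a change of 0.25, and WRN was at 6.73 and 8.41 FPKM, a change of 0.28. With GC content allowed for, BLM was at 0.13 and WRN at 0.10.

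The Fanconi anemia genes held 2 of the 3 repair genes past 1.5-fold, in opposite directions. FANCG, a scaffold of the core complex, was at 14.8 FPKM in control cells and 9.15 FPKM in knockdown cells, a change of -0.64 and the lowest of all 62 genes. Only 7.44% of all listed genes had a lower change. FANCF, an adaptor of the same complex, had a listed value of 0 in control cells and was at 0.927 FPKM in knockdown cells. No fold can be given against a value listed at 0, and 0.927 FPKM is a low level. All 321 genes that were at 0 in one library only, 182 in sh-Control and 139 in sh-CRNDE, were past 1.5-fold on the log2(FPKM + 1) scale. This was fixed in advance, since every listed gene was at 0.5 FPKM or more in at least 1 library. FANCF was the only repair gene with a single exon (chromosome 11, 22622533 to 22625823, minus strand), and 315 of its bases overlap GAS2, which was not among the listed genes.

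The other genes of the core complex had smaller changes. FANCA was at 5.20 and 5.34 FPKM (0.031), FANCC at 2.05 and 1.97 FPKM (-0.034) and FANCE at 3.70 and 3.59 FPKM (-0.033), where the value in parentheses is the change. FANCB, a structural partner of the ligase, was at 2.39 and 2.86 FPKM, a change of 0.19. FANCL, the ubiquitin ligase itself, was at 6.69 and 8.54 FPKM, a change of 0.31. FANCG and FANCL thus came to nearly equal levels, with a ratio of FANCG to FANCL of 2.21 in sh-Control and 1.07 in sh-CRNDE. FANCM, the DNA translocase that brings the complex to DNA, was at 3.35 and 3.72 FPKM, a change of 0.12.

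The targets of the core complex differed from each other as well. FANCI, which is ubiquitinated together with FANCD2, was at 19.2 FPKM in control cells and 24.8 FPKM in knockdown cells, a change of 0.35. FANCD2 was at 9.23 and 9.22 FPKM, a change of -0.0012. The ratio of FANCI to FANCD2 was 2.08 and 2.69. Over the 9 Fanconi anemia genes of the rule, 6 were above 0 and the median change was 0.12.

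The 250 bases before the RefSeq starts of FANCG (chr9:35079943-35080192) and FANCF (chr11:22625824-22626073), both read on the minus strand of GRCh38.p14, are shown because these genes lie farthest from 0 in either direction. Capitals mark GC boxes (GGGCGG on either strand) in FANCG and CCAAT boxes (CCAAT on either strand) in FANCF.
FANCG: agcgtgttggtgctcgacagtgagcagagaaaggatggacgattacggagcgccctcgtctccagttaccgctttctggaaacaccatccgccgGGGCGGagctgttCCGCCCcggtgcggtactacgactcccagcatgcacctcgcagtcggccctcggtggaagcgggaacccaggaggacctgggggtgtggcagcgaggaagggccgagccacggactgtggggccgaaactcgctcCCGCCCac
FANCF: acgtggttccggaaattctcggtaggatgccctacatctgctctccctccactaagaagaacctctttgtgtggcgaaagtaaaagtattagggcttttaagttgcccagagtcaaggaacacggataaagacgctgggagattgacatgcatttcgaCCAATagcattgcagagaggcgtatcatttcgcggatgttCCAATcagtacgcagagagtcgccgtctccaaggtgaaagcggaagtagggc
FANCG has 3 GC boxes and no CCAAT box, and FANCF has 2 CCAAT boxes and no GC box. The bases were 66.0% G or C in FANCG and 49.2% in FANCF.

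End joining held the most abundant repair genes, and 0 of its 5 genes were past 1.5-fold. Its median change was 0.16, which was 0.076 with GC content allowed for. The Ku subunits, which form a ring on broken ends, kept their proportion. XRCC6 (Ku70) was at 131.0 FPKM in control cells and 146.1 FPKM in knockdown cells, a change of 0.16, and XRCC5 (Ku80) was at 74.7 and 85.7 FPKM, a change of 0.20. The ratio of XRCC5 to XRCC6 was 0.570 and 0.587. PRKDC, the kinase DNA-PKcs that Ku recruits, was lower, with 64.5 and 53.8 FPKM and a change of -0.26. The ratio of PRKDC to XRCC6 was thus 0.492 in sh-Control and 0.368 in sh-CRNDE. XRCC4 was at 3.10 and 4.01 FPKM (0.29) and its partner, the ligase LIG4, at 5.07 and 5.79 FPKM (0.16).

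**Figure D3:**
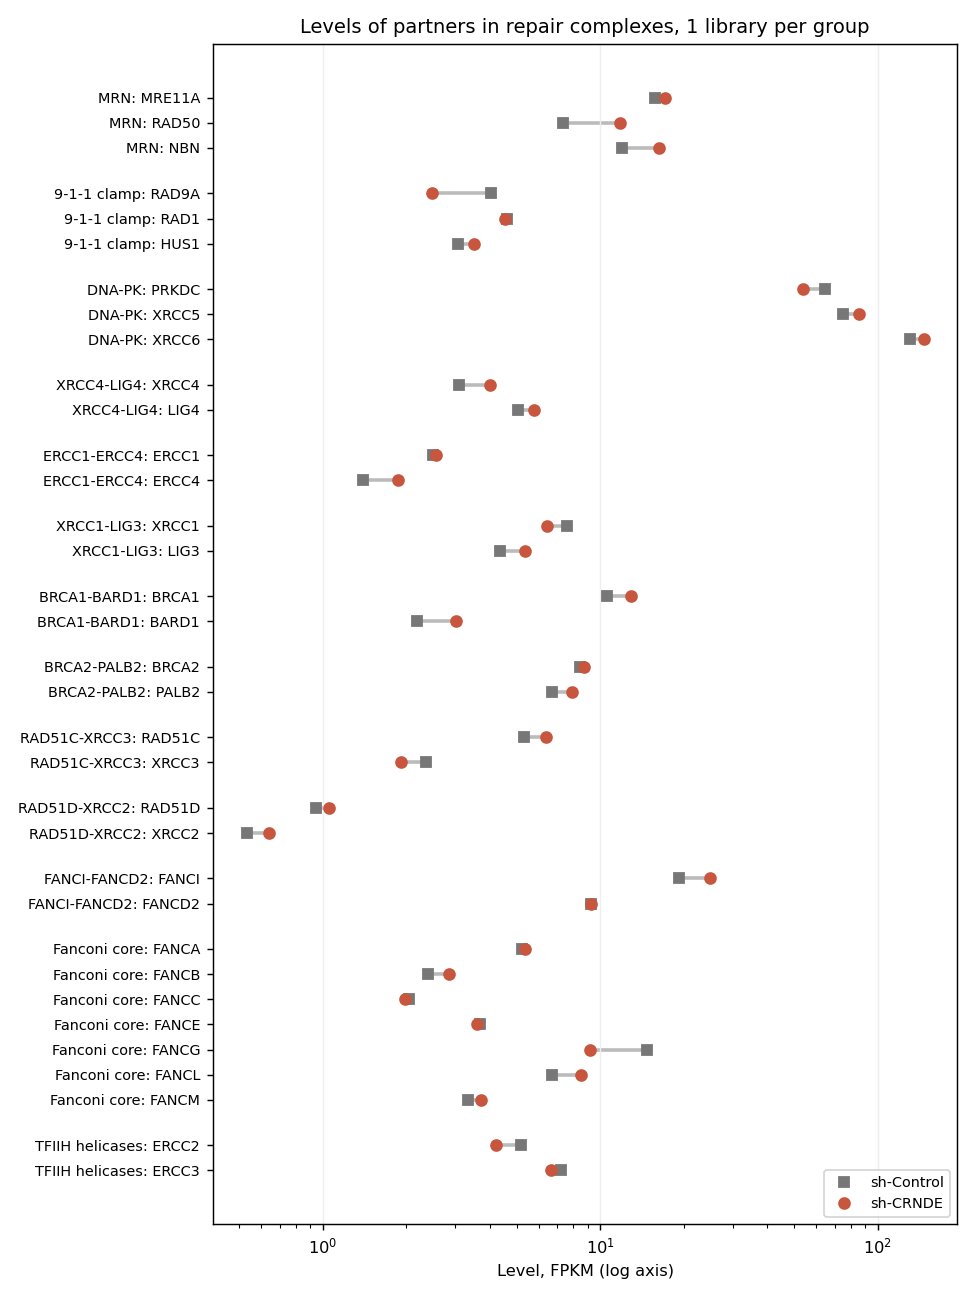
Each row is a gene named with the complex its protein belongs to, and the x axis is its level in FPKM on a log axis in sh-Control (grey square) and sh-CRNDE (red circle), 1 library each; FANCF is left out because it was listed at 0. The Ku subunits moved together, while RAD9A moved left past HUS1 and FANCG left towards FANCL.

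In nucleotide excision repair, 0 of 9 genes were past 1.5-fold and the median change was 0.028, which was 0.10 with GC content allowed for and -0.048 over the 4 genes whose level averaged 5 FPKM or more. ERCC5 (XPG), the endonuclease that cuts on the 3′ side of the lesion, was highest, with 13.7 FPKM in control cells and 18.5 FPKM in knockdown cells and a change of 0.41. It shares 3641 bases with the readthrough gene BIVM-ERCC5, which was not among the listed genes. ERCC4 (XPF), which cuts on the 5′ side, was at 1.40 and 1.87 FPKM (0.26), and its partner ERCC1 was at 2.49 and 2.56 FPKM (0.028). The nucleases were thus at equal or higher levels in sh-CRNDE.

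The TFIIH helicases were the low end of this pathway as deposited, but with GC content allowed for only ERCC3 stayed near it. ERCC2 (XPD) was at 5.17 and 4.22 FPKM, a change of -0.24. ERCC3 (XPB) was at 7.23 and 6.65 FPKM, a change of -0.11. RAD23B, a partner of the damage recognition protein XPC, was the most abundant, with 33.6 and 32.3 FPKM (-0.055). With GC content allowed for, ERCC2 was at -0.0054 and ERCC3 at -0.081, and RAD23B was the lowest of the pathway at -0.17. Of the genes for repair of transcribed strands, ERCC8 (CSA) was at 1.80 and 2.59 FPKM (0.36) and ERCC6 (CSB) at 1.16 and 1.23 FPKM (0.045).

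In mismatch repair, 0 of 7 genes were past 1.5-fold and the median change was 0.10, which was 0.015 with GC content allowed for. MSH6, which recognises single mispairs, was at 15.4 FPKM in control cells and 18.7 FPKM in knockdown cells, a change of 0.27, and MSH3, which recognises small loops, was at 5.16 and 6.30 FPKM, a change of 0.25. Both recognition genes were thus higher in sh-CRNDE by a similar step. PMS2, which nicks the strand to be replaced, was at 5.86 and 6.36 FPKM, a change of 0.10.

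PMS2 is uncertain because 1448 bases of it align at 98.0% identity to PMS2CL, which was at 3.66 and 3.41 FPKM, and 1662 bases to a noncoding gene that was not among the listed genes. MLH3 (1.37 and 1.31 FPKM, -0.033) and MSH5 (1.64 and 1.51 FPKM, -0.070), which are best known from meiosis, were at low levels in both libraries.

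Base excision and single-strand break repair had 0 of 7 genes past 1.5-fold, 5 above 0 and a median change of 0.11. Of its genes, 3 were among the 6 most abundant of all repair genes. APEX1, which cuts at sites that have lost their base, was at 60.8 and 67.4 FPKM (0.15), PARP1, which detects nicks, at 63.1 and 64.6 FPKM (0.034), and UNG, which removes uracil, at 41.7 and 45.0 FPKM (0.11). These abundant genes were within 0.15 of each other and of 0.

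At the sealing step, the values went both ways as deposited. XRCC1, the scaffold, was at 7.62 FPKM in control cells and 6.41 FPKM in knockdown cells, a change of -0.22 and the lowest of the group, while its partner, the ligase LIG3, was at 4.35 and 5.36 FPKM (0.25). The ratio of XRCC1 to LIG3 was 1.75 and 1.20. With GC content allowed for, XRCC1 was at -0.021, close to 0, and LIG3 at 0.20. LIG3 shares 3754 bases with RFFL on the opposite strand, which was at 0.996 and 3.21 FPKM. PARP2 was at 6.66 and 8.37 FPKM, a change of 0.29 and the highest of the group, and OGG1, which removes oxidised guanine, was at 1.16 and 1.11 FPKM (-0.033).

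The remaining genes of the rule were RAD21, a cohesin subunit that holds sister chromatids together, and RAD18, a ubiquitin ligase for damage bypass. RAD21 was at 32.7 FPKM in control cells and 25.6 FPKM in knockdown cells, a change of -0.34, and RAD18 was at 4.36 and 4.89 FPKM, a change of 0.14. RAD21, FANCG and RAD9A were among the genes lower by more than 0.32. The 8 genes higher by more than 0.32 were RAD50, FANCF, NBN, CHEK2, ERCC5, ERCC8, FANCI and BARD1.

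**Figure D4:**
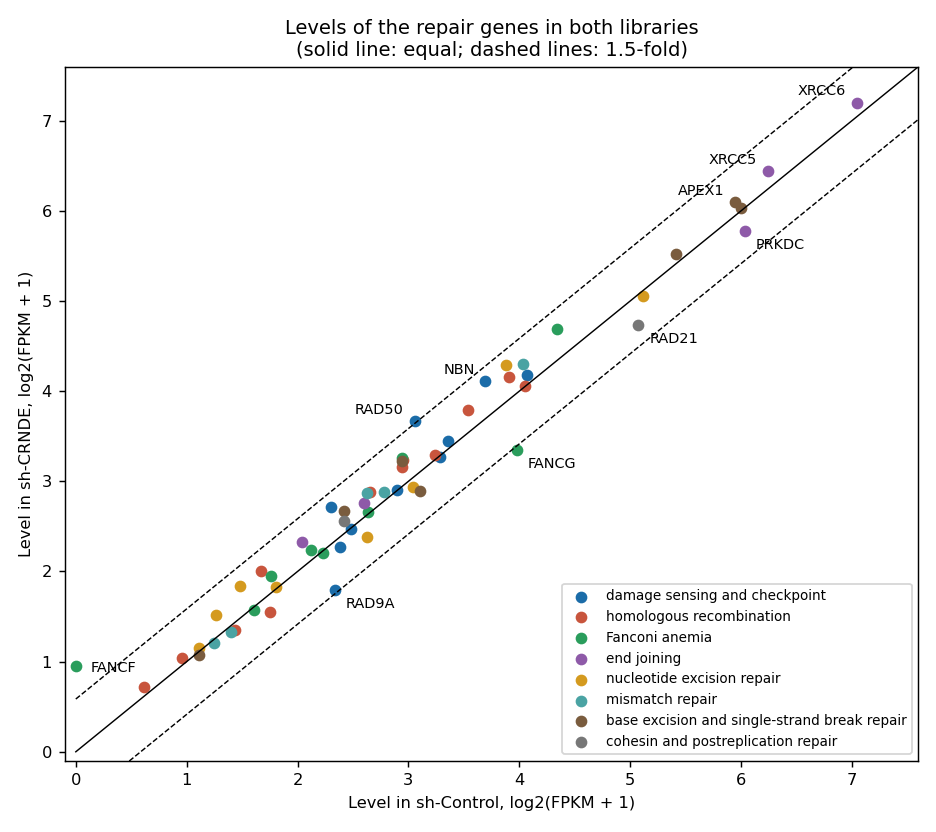
Each point is one of 58 repair genes, with its level in sh-Control on the x axis and in sh-CRNDE on the y axis (both log2(FPKM + 1), 1 library each), coloured by pathway; the solid line marks equal levels and the dashed lines 1.5-fold. The points follow the solid line from XRCC2 (0.532 and 0.640 FPKM) to XRCC6 (131.0 and 146.1 FPKM), and FANCF, RAD50 and FANCG lie outside the dashed lines.

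The lean to higher values went with base composition. The canonical transcripts of the repair genes had a median GC content of 43.1%, below the 48.3% of all listed genes. Of the 31 repair genes under their own median GC content, 25 were above 0, with a median change of 0.16, and of the 31 at or over it 16 were, with a median of 0.028. All listed genes at 1 FPKM or more in both libraries showed the same order, with 71.1% above 0 and a median of 0.15 under that GC content, and 38.7% and -0.088 at or over it. The repair genes above 0 had a median GC content of 41.8% and those below 0 of 50.6%.

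When the median change of listed genes of similar GC content was subtracted, 36 repair genes were above 0 and 26 below, with a median of 0.068. Thus 58.1% of them were above 0, beside 50.7% of all listed genes with a GC value, whose median was 0.0047. The direction turned in 17 repair genes, 11 from above to below 0 and 6 the other way. Among them were BRCA2, MRE11A, ATR, RAD17, FANCB, FANCM, LIG4, ERCC6, XRCC2, XRCC3, RAD54L, FANCE, OGG1 and MSH5. RAD50, with 41.2% GC, was then at 0.49 and FANCG, with 57.7% GC, at -0.45, so neither was past 1.5-fold, and FANCF alone was. The call of FANCF as deposited was fixed by its value of 0 in sh-Control. What set this difference between the libraries was not tested.

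**Figure D5:**
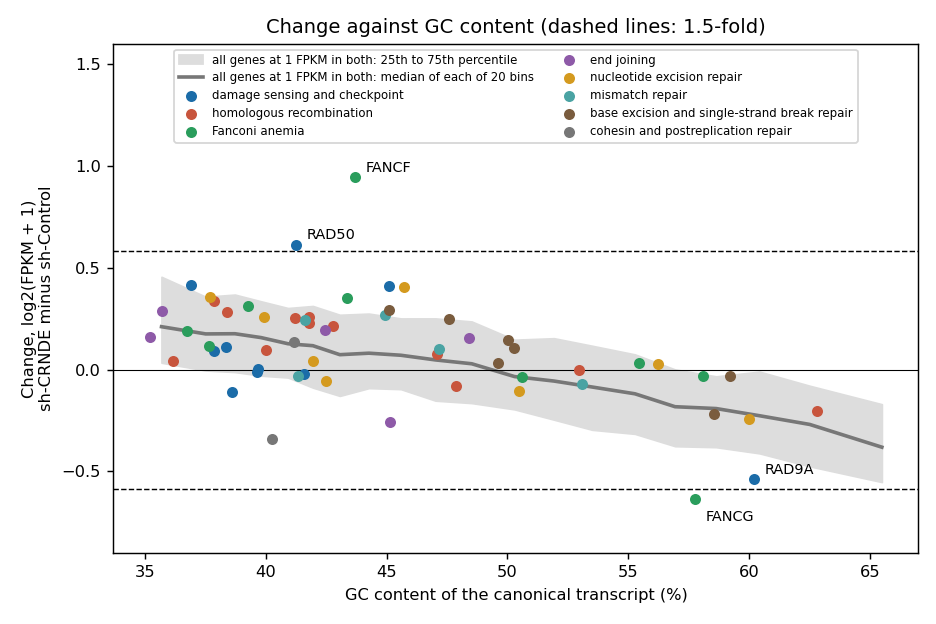
The x axis is the GC content of the canonical transcript (%) and the y axis the change (log2(FPKM + 1) in sh-CRNDE minus sh-Control) of 58 repair genes (points, coloured by pathway); the grey line is the median and the grey band the 25th to 75th percentile of listed genes at 1 FPKM or more in both libraries, in 20 bins of GC content. The grey line falls from 0.21 in the bin of lowest GC content to below 0 at high GC content, and RAD50, FANCF and FANCG are among the points outside the band.

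Promoter sequences show which of the repair genes hold letters of cell cycle regulators. E2F factors drive genes of the G1 to S transition, CCAAT boxes bind NF-Y, the CHR element binds the complexes that restrict genes to G2 and M phase, and GC boxes bind Sp1 and related factors. RefSeq promoters (250 bases before to 50 after the start, GRCh38.p14) matched 52 of the 62 genes, and the promoters of 8487 listed genes served as the background. One of the 4 E2F sites searched (TTTCCCGC, TTTGGCGC, TTTCGCGC and TTTGCCGC, on either strand) stood in 7 of 52 repair promoters (13.5%) and in 5.94% of all. A CCAAT box stood in 26 (50.0%) and in 37.5% of all, the CHR element (TTTGAA) in 5 (9.62%) and 9.30%, and a GC box in 38 (73.1%) and 74.1%. A match is a run of letters and does not show that a factor binds.

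The E2F matches are shown with the bases around them, in capitals for the site, each read on the strand of its gene. The windows lie at chr16:89816803-89816828 for FANCA, chr9:95317739-95317764 and chr9:95317865-95317890 for FANCC, chr5:80654536-80654565 for MSH3, chr2:47783139-47783164 for MSH6, chr7:6009133-6009158 for PMS2, chr7:152676104-152676129 for XRCC2 and chr22:41621328-41621344 for XRCC6.
FANCA: tacaccgcgGCGGCAAAgccaaacgc
FANCC, nearer the start: cgtcggaatTTTCCCGCgacgccgcg
FANCC, farther from the start: ggggcttccGCGCGAAAccgggaaca
MSH3: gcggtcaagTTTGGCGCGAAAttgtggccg
MSH6: ccccccagaTTTCCCGCcagcaggag
PMS2: ggaagtattTTTGCCGCcccgcccgg
XRCC2: gcgttggtgGCGGGAAAgttgagtct
XRCC6: cgcttccctGCGCCAAA
In MSH3 the capitals cover 2 overlapping sites, 1 on each strand. In MSH6, XRCC2 and XRCC6 the site lies after the gene start. None of the 7 genes with an E2F match was past 1.5-fold, 6 were above 0, and their median change was 0.10, from FANCC at -0.034 to MSH6 at 0.27. The 45 without a match had a median change of 0.094 and 29 were above 0, and they include RAD50, FANCF and FANCG.

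The other genes of these pathways, taken from a list of 92 that the rule leaves out, had a like spread. Of the 91 listed, 1 was higher and 1 lower past 1.5-fold (2.20%, beside 17.2% of all listed genes). By more than 0.32, 11 were higher and 9 lower (22.0%, beside 39.4%), and 58 were above 0 (63.7%, beside 49.2%). The median change was 0.061, beside -0.0072 over all listed genes. With GC content allowed for it was 0.0086, beside 0.0047. RPA3, a subunit of the protein that coats single-stranded DNA, was at 9.14 FPKM in control cells and 14.6 FPKM in knockdown cells, a change of 0.63. RNF168, a ubiquitin ligase that marks chromatin around breaks, was at 4.54 and 2.09 FPKM, a change of -0.84. H2AFX, the histone phosphorylated at breaks, was just under the threshold, with 20.7 and 31.5 FPKM and a change of 0.58, and CETN2, a partner of XPC in damage recognition, was at 9.52 and 6.02 FPKM, a change of -0.58. MGMT, which removes alkyl groups from guanine, was not among the listed genes.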

How the data were processed

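RNA of NB4 cells infected with sh-CRNDE or sh-Control was sequenced, 1 library per group, with the TruSeq RNA kit v2 on an Illumina MiSeq. The authors deposited FPKM values per gene. The submitters' processing notes name fastp 0.20.0, HISAT2 2.0.4, StringTie 1.2.3 and GRCh38. FPKM keep no read counts, so the depth and counting error are unknown.

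The change was log2(FPKM + 1) in sh-CRNDE minus sh-Control, with a pseudocount of 1, no further scaling, no filter and a threshold of 1.5-fold. This scale understates the change of lowly expressed genes. With 1 library per group no test was run. The repair genes, pathways and lists were chosen with earlier results of these data known. Named genes are CRNDE, GAPDH, every repair gene past 1.5-fold or listed at 0, the most abundant gene and both extremes of each pathway, those nearest the threshold, partners in complexes, and other repair, p53 target and proliferation genes past 1.5-fold. H2AFX, CETN2 and the genes named for overlaps, E2F matches or marker lists, as well as the remaining repair genes, were added after their values were seen. Of the 62 genes, 4 count in every total but are not reported here by name, and the plots of single genes show the other 58.

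GENCODE release 44 on GRCh38 gave positions, overlaps, length and GC content of canonical transcripts, and 11508 of 11619 identifiers matched, all 62 repair genes included. Near-identical copies were searched with minimap2 2.31 (at least 200 bases at 97% identity). Promoters came from RefSeq on GRCh38.p14, 1 per gene, nearest to the canonical start. Alternatives were pseudocounts of 0.1 and 0.01, centring, quantile normalization, rescaling to a common sum without mitochondrial genes, ribosomal RNAs and small RNAs, GC subtraction in 20 bins, thresholds of 2-fold and of 0.32 on the log2 scale, and filters on low or zero values. The computation was tested on simulated data. Python 3.11.15, numpy 2.4.6, pandas 2.3.3 and matplotlib 3.10.9 were used.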

Additional observations from a re-analysis of the deposited data

How the results depend on the processing

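With 1 library per group no replicate could be left out, and the error of every value is unknown. No paired analysis was possible because each group has 1 library. The limits are the unknown depth, the GC content and genes that overlap the repair genes. Exonic bases shared with another gene were found in 42 repair genes, and only some of these overlaps are named with the results. The overlap was on the same strand in 13 of them and on the opposite strand in 39, some having both. Overlaps not named there include 4022 bases of MSH6 with FBXO11 and 2409 bases of FANCA with ZNF276. The part of the overlaps in the changes was not tested. No repair gene past 1.5-fold changed its direction under the alternatives run, and none moved the median of all genes by more than 0.1 on the log2 scale. The count of repair genes past 1.5-fold was 3 as reported (2 higher and 1 lower). After GC subtraction it was 1 (1 higher, 0 lower), at 2-fold 0 in each direction, and past 0.32 on the log2 scale 12 (8 higher, 4 lower). Only 1 gene was higher with at least 1 FPKM in both libraries, with a mean of at least 5 FPKM, or without genes listed at 0, since FANCF then drops out. A pseudocount of 0.1 or 0.01 or rescaling to a common sum gave 2 lower genes, because RAD9A was then at -0.69, -0.71 and -0.69, while GC subtraction gave -0.30. The median of homologous recombination was 0.23 and 0.24 with pseudocounts of 0.1 and 0.01, 0.21 rescaled, 0.22 with at least 1 FPKM and 0.22 with a mean of at least 5 FPKM. GC subtraction gave -0.11 for damage sensing, below 0 where it was 0.048 as reported, and -0.24 for RAD21 and RAD18, which was -0.34 for RAD21 alone with a mean of at least 5 FPKM. Of all listed genes, 2000 were past 1.5-fold as reported and 1691 after GC subtraction. The count was 774 at 2-fold and 4573 past 0.32 on the log2 scale. It was 3301 and 3481 with pseudocounts of 0.1 and 0.01, and 3133 rescaled. CRNDE was at -1.63 and -1.68 with these pseudocounts, -1.62 rescaled and -1.40 after GC subtraction. Rescaling raised the sum of each library while the pseudocount stayed at 1, so the pseudocount was smaller beside the values. Any other part in the moves under rescaling was not tested.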

Other observations

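Genes that p53 activates after DNA damage went both ways. Of 20 such genes, 17 were listed, 3 were higher and 1 lower past 1.5-fold (23.5%, beside 17.2% of all listed genes), and the median change was -0.088, beside -0.0072 over all listed genes. MDM2, the ubiquitin ligase that degrades p53, was at 2.08 FPKM in control cells and 4.49 FPKM in knockdown cells, a change of 0.83. RRM2B, a ribonucleotide reductase subunit that supplies nucleotides for repair, was at 2.94 and 7.04 FPKM, a change of 1.03, and TIGAR, a regulator of glycolysis, was at 0.625 and 1.49 FPKM, a change of 0.62. PPM1D, the phosphatase that switches the damage response off, was at 4.13 and 1.49 FPKM, a change of -1.04. CDKN1A, TP53I3 and BTG2 were not among the listed genes.

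Many repair genes are expressed with replication, so genes of proliferating cells were set beside them. Of 20 such genes, 0 were higher and 2 lower past 1.5-fold (10.0%, beside 17.2% of all listed genes), 12 were above 0 (60.0%, beside 49.2%) and the median change was 0.078. CCNA2, cyclin A, was at 69.5 FPKM in control cells and 34.9 FPKM in knockdown cells, a change of -0.98, and MCM2, a subunit of the replicative helicase, was at 74.9 and 41.5 FPKM, a change of -0.83.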
